A study of Mus musculus with 8 samples.

Results

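The 4 tissue inhibitors of metalloproteinases, encoded by Timp1, Timp2, Timp3 and Timp4, were followed in the messenger RNA of epididymal white adipose tissue (eWAT), the visceral fat pad attached to the epididymis of male mice. They were chosen by symbol, and 4 of 4 symbols were found among the 16505 genes of the table. All mice were C57BL/6 and ate a high fat diet for 12 weeks; 4 were wild-type (WT) and 4 carried a miR-181 double knockout (DKO). The labels do not name the deleted miR-181 loci or give age, litter or housing, so p-values measure only the spread between these samples. Timp1 and Timp2 were lower in the knockout and Timp3 and Timp4 were higher. The fall of Timp1 was 8.84-fold and the rise of Timp4 26.2-fold, while Timp2 fell 1.84-fold and Timp3 rose 2.52-fold.

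TIMPs are small secreted proteins whose amino-terminal domain wedges into the active site of a metalloproteinase and blocks it. Their targets are the matrix metalloproteinases (MMPs), which cut collagen and other matrix proteins, and, for TIMP3 above all, the ADAM and ADAMTS proteases, which shed membrane proteins or cut proteoglycans. In fat tissue this system remodels the matrix around adipocytes as they grow, and the TIMPs differ in where they are made, with Timp4 known for its expression in adipose tissue and heart and Timp1 for its induction by cytokines and growth factors.

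Values are log2 CPM, the log2 of a gene's read count scaled to the total of its library, and changes are knockout minus WT on that log2 scale, with the standard error from limma. Group values are means ± SD with n = 4. Library totals were 4081597, 15410736, 6790005 and 5872136 reads in WT replicates 1 to 4. In knockout replicates 1 to 4 they were 3736881, 76838584, 36319777 and 20336161. Knockout replicates 2 to 4 were thus deeper than every WT library, so depth went in part with genotype. With reads drawn at random down to the smallest total, the changes were -3.05, -0.87, 1.34 and 4.67 for Timp1 to Timp4. Every interval on a share of reads below covers counting error only. Ribosomal and epididymis RNA set libraries apart, and so did the shares of red cell and smooth muscle markers given further below. The ribosomal RNA genes Rn18s and Rn28s1 took over 1% of reads in WT replicates 1, 3 and 4 and knockout replicate 1 and 0.0916% to 0.334% in the other 4. Markers of the epididymis took 1.501% of reads in the second WT library, while knockout replicates 2 and 4 held 2.57% and 1.21%, and the others at most 0.00838%. The 95% Wilson bounds lay within 0.0310 percentage points of every ribosomal share and within 0.00608 of every epididymis share. All 13 fat markers had reads in every library. The same held for every macrophage, endothelial and mast cell marker looked at, so this does not test the tissue label.

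A microRNA lowers its target messengers by pairing through its seed, bases 2 to 8 from its 5′ end, mostly with sites in the 3′ untranslated region (UTR). Since the knockout removes miR-181 genes, the mature miR-181 sequences and the seed matches in the TIMP messengers are shown first. RefSeq (GRCm38.p6) lists 4 mature miR-181 5p sequences from 6 loci, and all share 1 seed, here in capitals. The labels do not say which of the 6 loci were deleted, so microRNA with this seed may remain in the knockout. No row of the table is a Mir181 gene, so the deletion could not be checked in these libraries.
mmu-miR-181a-5p: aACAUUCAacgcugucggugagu
mmu-miR-181b-5p: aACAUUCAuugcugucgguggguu
mmu-miR-181c-5p: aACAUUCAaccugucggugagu
mmu-miR-181d-5p: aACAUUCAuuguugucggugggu

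The longest annotated 3′ UTR of each TIMP gene (GENCODE M21, GRCm38) was searched on the transcript strand for the match to bases 2 to 8 (TGAATGT), the same followed by an A (TGAATGTA), and the match to bases 2 to 7 (GAATGT), which lies within the other 2. Timp1, the member that fell most, has a 3′ UTR of 103 bases with no match. Timp2, which also fell, holds 1 TGAATGT and 1 GAATGT in 2630 bases. Timp3 holds 3 matches in 3604 bases, 1 of them TGAATGTA. Timp4, with the largest rise, holds only GAATGT matches, 2 in 4394 bases. The sites are printed with their flanks and the match in capitals, positions counted from 1 at the first base of the 3′ UTR; a match of bases 2 to 7 followed by an A has the A in capitals too.
Timp2, 366 to 371: tgttagggcagagcctggGAATGTgcattt
Timp2, 1443 to 1449: tgaagtctggtagcctgTGAATGTtccttt
Timp3, 2419 to 2425: atacttcaattatatcgTGAATGTtttatt
Timp3, 3440 to 3446: aaaaccccctctagaagGAATGTAtttgtt
Timp3, 3514 to 3521: tgaattttatattccgTGAATGTAtattgt
Timp4, 1739 to 1745: attgacatgtggtgaggGAATGTAacatgc
Timp4, 2158 to 2163: actgcaaaagacaagaaaGAATGTcagtgt

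Such matches are common. TGAATGT was present in the 3′ UTR of 17.7% of the 14746 table genes with an annotated UTR, TGAATGTA in 5.78% and GAATGT in 35.1%. Among genes with a 3′ UTR of like length (within 0.25 on the log2 scale), TGAATGT was found in 0.702% for the length of Timp1. The share was 27.7% for the length of Timp2, 37.6% for Timp3 and 42.1% for Timp4. GAATGT was found in 2.11%, 58.9%, 68.0% and 73.0% for the lengths of Timp1 to Timp4. The 2 members with TGAATGT moved in opposite directions. A letter match is no evidence that the microRNA acts there.

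Timp1 encodes the soluble inhibitor that binds the precursor of MMP9 and that inflamed tissue commonly makes more of. It stood at 5.37, 5.83, 5.41 and 6.31 log2 CPM in WT replicates 1 to 4 and at 3.03, 2.72, 2.54 and 2.05 in knockout replicates 1 to 4. Every knockout library lay below every WT library, and the gap between the groups was 2.34. The means were 5.73 ± 0.44 and 2.59 ± 0.41. The change was -3.14 ± 0.26 (limma, adjusted p = 5.91e-05), and 132 of the 13797 genes tested (0.957%) had a change at least as large in size. The shallowest Timp1 value rested on 30 reads.

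The promoters of Timp1 and Timp4 are shown because these members moved most, in opposite directions. The sequence runs from 250 bases before the RefSeq start to 50 after it (GRCm38.p6, read on the gene's strand), with motif matches in capitals.
Timp1, chrX:20869916-20870215, plus strand: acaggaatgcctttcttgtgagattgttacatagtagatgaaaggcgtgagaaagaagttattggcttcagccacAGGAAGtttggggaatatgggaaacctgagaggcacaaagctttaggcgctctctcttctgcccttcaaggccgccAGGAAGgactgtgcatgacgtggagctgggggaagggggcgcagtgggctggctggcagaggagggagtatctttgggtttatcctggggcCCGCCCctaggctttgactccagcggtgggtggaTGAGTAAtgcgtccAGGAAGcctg

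In this window Timp1 has 1 TGAGTAA, an AP-1-like motif present in 2.68% of 32851 promoters. It also has 3 AGGAAG, an ETS-factor core present in 35.4%, and 1 GGGCGG, an Sp1 motif present in 35.7%. All motifs were searched on both strands, so some stand as their reverse complement. None of the 4 TIMP promoters held TGANTCA, the AP-1 motif (7.81% of promoters), or TATAAA (13.6%).

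Timp2 encodes the inhibitor that, besides blocking MMPs, docks the MMP2 precursor to MMP14 at the cell surface for activation. It was read at 9.85, 9.87, 9.70 and 9.98 log2 CPM in the WT libraries and at 9.11, 8.71, 9.13 and 8.93 in the knockout. The lowest WT library was still 0.56 above the highest knockout one. Its change was -0.88 ± 0.14 (limma, adjusted p = 0.00118), from 9.85 ± 0.12 to 8.97 ± 0.19. It was the smallest change in the family, and 28.7% of tested genes changed as much or more. Without the 3 libraries rich in epididymis markers the change was -0.72 (adjusted p = 0.0289).

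Timp3 encodes the TIMP that binds the extracellular matrix and is the family's main inhibitor of ADAM17, the protease that releases tumour necrosis factor from cells. In WT it stood at 6.83, 6.87, 7.39 and 6.97 log2 CPM, and in the knockout at 8.67, 7.99, 8.39 and 8.35. WT replicate 3 was the highest WT library and knockout replicate 2 the lowest knockout one, and they still differed by 0.60. The group means were 7.02 ± 0.26 and 8.35 ± 0.28. The change was 1.34 ± 0.17 (limma, adjusted p = 0.000453), a size reached by 15.9% of tested genes.

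Timp4 encodes the member with the narrowest tissue range, best known from fat, heart and brain. Its WT libraries lay at 3.35, 3.01, 3.81 and 2.99 log2 CPM and its knockout libraries at 7.48, 7.16, 8.48 and 8.87. The gap between the groups was 3.35, the widest of the 4 genes, and the knockout libraries were also the most spread (SD 0.81 around 7.999, against 0.39 around 3.29 in WT). Its change of 4.71 ± 0.37 (limma, adjusted p = 4.4e-05) ranked as number 6 in size among the 8554 tested genes with a positive change, and 11 of all tested genes (0.0797%) changed at least as much in either direction. The smallest Timp4 count was 41 reads.
Timp4, chr6:115252156-115252455, minus strand: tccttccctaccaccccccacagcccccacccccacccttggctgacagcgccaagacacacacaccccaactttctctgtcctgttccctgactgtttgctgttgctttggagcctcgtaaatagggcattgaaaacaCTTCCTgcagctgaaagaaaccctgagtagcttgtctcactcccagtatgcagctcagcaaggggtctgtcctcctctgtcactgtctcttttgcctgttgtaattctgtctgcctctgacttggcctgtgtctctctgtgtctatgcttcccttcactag

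Timp4 has 1 AGGAAG in this window, on the opposite strand, and no GGGCGG. Its promoter holds 2 CpG pairs and that of Timp1 8, near or under the median of 7 over all promoters, while those of Timp2 and Timp3 hold 25 and 24. Of the members with low counts Timp1 fell and Timp4 rose, and of those with high counts Timp2 fell and Timp3 rose. A link between CpG count and direction was not tested.

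**Figure D1:**
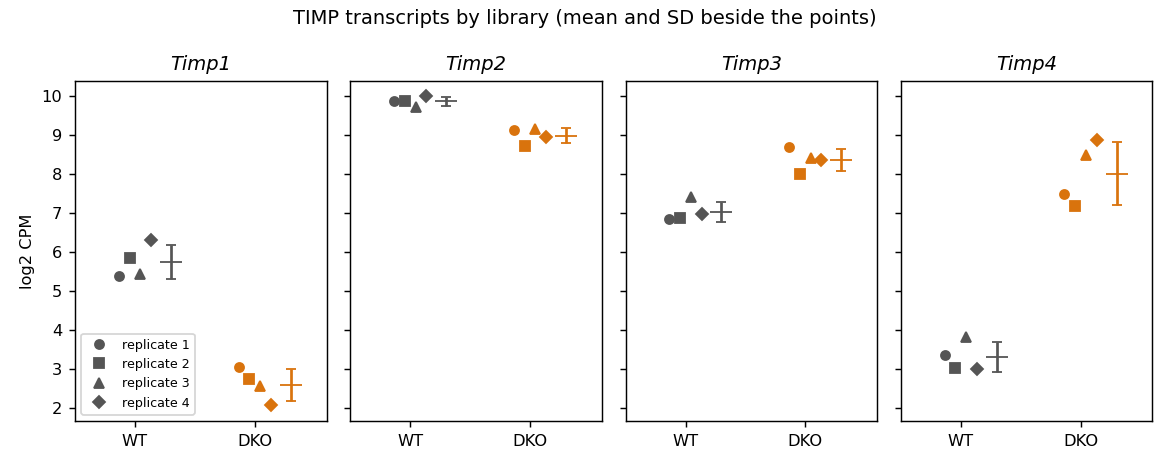
Log2 CPM (vertical axis) of the 4 TIMP genes in each of the 4 WT and 4 DKO libraries, 1 symbol per replicate, with the group mean and SD drawn beside the points. The WT and DKO points of each gene do not overlap, with the DKO points lower for Timp1 and Timp2 and higher for Timp3 and Timp4.

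All 4 members passed the threshold, 2 in each direction, where 38.8% of the tested genes did (22.7% higher and 16.1% lower). The groups did not overlap for any of the 4, as for 37.4% of tested genes (20.8% with the knockout higher and 16.6% with it lower). The median change of the family was 0.23, beside 0.18 over all tested genes. Whether the median over all tested genes is an offset of the scale shared by every gene was not tested. With each library centred on its median, the median change over all tested genes was 0.03. The 4 changes were then -3.29, -1.02, 1.19 and 4.57 in the order Timp1 to Timp4, all with the same direction and call. The share of called genes that were higher was 58.6% on the deposited scale and 46.4% after centring.

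Within the class of libraries with over 1% ribosomal RNA (3 WT and 1 knockout) the changes were -2.67 for Timp1, -0.73 for Timp2, 1.61 for Timp3 and 4.10 for Timp4. In the other class (1 WT and 3 knockout) they were -3.39, -0.94, 1.37 and 5.16. All directions held in both classes. With the class as a term in the fit over all 8 libraries, the changes were -3.03 for Timp1 (limma, adjusted p = 0.000300), -0.84 for Timp2 (0.00493), 1.49 for Timp3 (0.000554) and 4.63 for Timp4 (0.000235). Without the 3 epididymis-rich libraries the changes of Timp1, Timp3 and Timp4 were -2.91, 1.47 and 4.60.

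**Figure D2:**
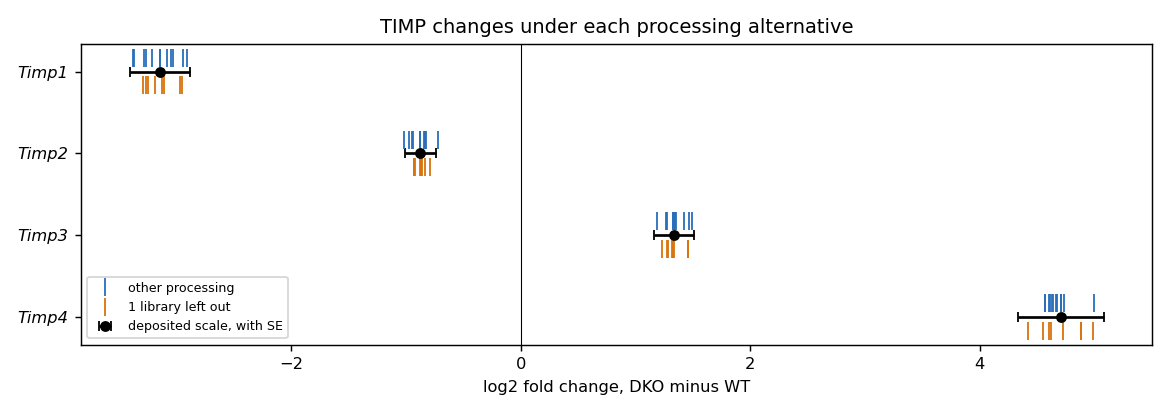
Change of each TIMP gene (horizontal axis, log2 fold change, DKO minus WT) on the deposited scale (black, with SE), under each other processing (blue) and with 1 library left out (orange), 1 mark per setting. Timp1 stays between -3.38 and -2.91, Timp2 between -1.02 and -0.72, Timp3 between 1.19 and 1.49 and Timp4 between 4.42 and 4.995.

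To compare levels between members, CPM were divided by the length in kilobases of the longest coding transcript (883, 3709, 4722 and 5496 bases for Timp1 to Timp4). In WT fat Timp2 was the most abundant at 249 ± 19.6 CPM per kb, followed by Timp1 at 62.3 ± 19.98, Timp3 at 27.7 ± 5.28 and Timp4 at 1.83 ± 0.52. No 2 neighbours in that order overlapped over the 4 libraries. In the knockout Timp2 remained first at 136 ± 17.7 CPM per kb, and Timp1 was last at 7.002 ± 1.89. Timp3 at 70.1 ± 13.3 and Timp4 at 52.2 ± 27.8 overlapped, and their order turned with exon-union lengths (40.6 and 48.6).

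As a share of the family's summed level per kb, Timp2 made up 73.2 ± 3.19% in WT and 51.7 ± 4.76% in the knockout. The share of Timp1 went from 18.0 ± 3.84% to 2.73 ± 0.969%. Timp3 went from 8.26 ± 2.15% to 26.5 ± 3.42%, and Timp4 from 0.550 ± 0.203% to 19.1 ± 8.27%. The sum itself was 341 ± 35.0 CPM per kb in WT (310 to 389) and 265 ± 43.8 in the knockout (201 to 294). The family total was thus lower in every knockout library than in every WT library, while its make-up moved from Timp1 and Timp2 towards Timp3 and Timp4. These shares restate the 4 changes and were not tested on their own.

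**Figure D3:**
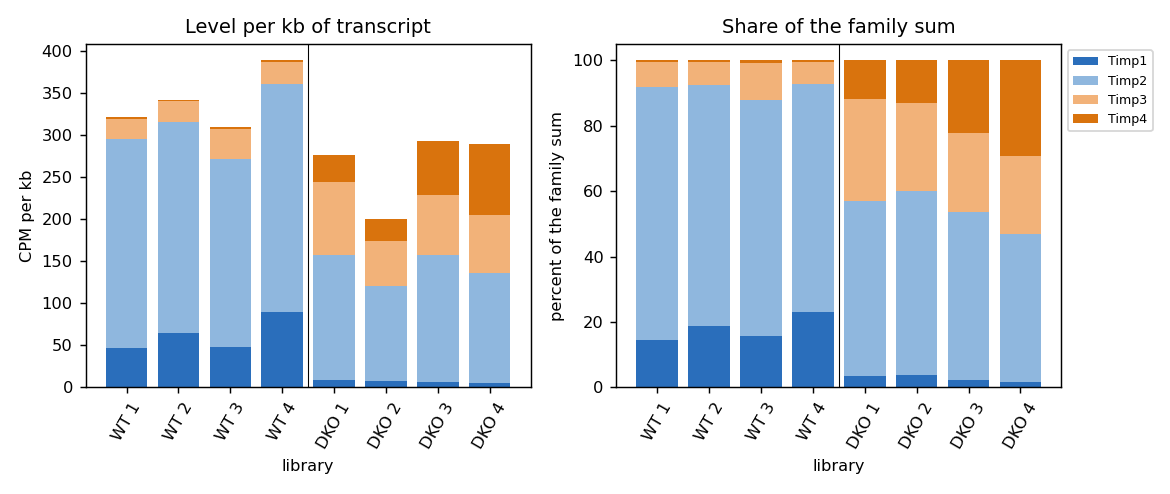
Level of each TIMP gene in CPM per kilobase of transcript (left, vertical axis) and as a percent of the family sum (right), stacked for each of the 8 libraries. Timp2 is the largest block in every library, Timp1 is the second in WT (62.3 CPM per kb on average), and Timp3 and Timp4 take its place in the DKO libraries (70.1 and 52.2 on average).

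In the mouse genome 3 TIMP genes lie within the span of synapsin genes, which encode proteins of synaptic vesicles, each on the opposite strand (GENCODE M21, another build than that of the table). Timp1 lies in Syn1 on chromosome X, Timp3 in Syn3 on chromosome 10 and Timp4 in Syn2 on chromosome 6. Exons of the pairs share 0, 1733 and 90 bases. The library kit kept strand, but the authors' strand setting in counting (not given in the sources used here) is unknown, so reads of a TIMP gene and its host cannot be told apart with certainty where they overlap.

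Each host gene moved in the direction of the TIMP gene within it. All 3 were called, as were 38.8% of all tested genes (22.7% higher and 16.1% lower). Their groups did not overlap, as for 37.4% of all tested genes. Syn1 stood at 3.89, 3.63, 3.33 and 3.81 log2 CPM in WT and 0.80, 0.72, 0.23 and -0.70 in the knockout, a change of -3.41 ± 0.35 (limma, adjusted p = 0.000159). All 4 knockout libraries were below all WT libraries, as for Timp1. Syn2 stood at 1.22, 3.10, 1.79 and 1.20 in WT and 3.12, 3.87, 3.48 and 3.97 in the knockout, a change of 1.78 ± 0.42 (adjusted p = 0.01004). The gap between its groups was only 0.0165. Syn3 had few reads (30 over the WT libraries) and stood at -1.44, 0.78, -1.44 and -1.97 in WT and 1.62, 2.13, 1.38 and 1.73 in the knockout. It changed by 2.73 ± 0.61 (adjusted p = 0.00713). The WT library rich in epididymis markers, replicate 2, was the highest WT library for Syn2 and Syn3, and in the class of libraries that holds it the changes were 0.67 and 0.96, against 1.72 and 3.24 in the other. The part of epididymis RNA in these 2 changes was not tested.

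Because a TIMP gene and its host gene lie on opposite strands, their ratio was followed by library. The log2 ratio of Syn1 to Timp1 was -2.06 ± 0.43 in WT and -2.33 ± 0.32 in the knockout, and the libraries overlapped. That of Syn2 to Timp4 went from -1.46 ± 1.04 to -4.39 ± 0.78, with no overlap. That of Syn3 to Timp3 was -8.03 ± 1.33 in WT and -6.63 ± 0.55 in the knockout. It overlapped through WT replicate 2 alone, the epididymis-rich library at -6.09, and the other WT ratios (-8.28, -8.83 and -8.94) were below all 4 knockout ratios (-7.05 to -5.86). Syn1 thus kept its proportion to Timp1 within the spread of the libraries, and Syn2 did not keep its proportion to Timp4. These ratios are not per length, so only their difference between the groups can be read.

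**Figure D4:**
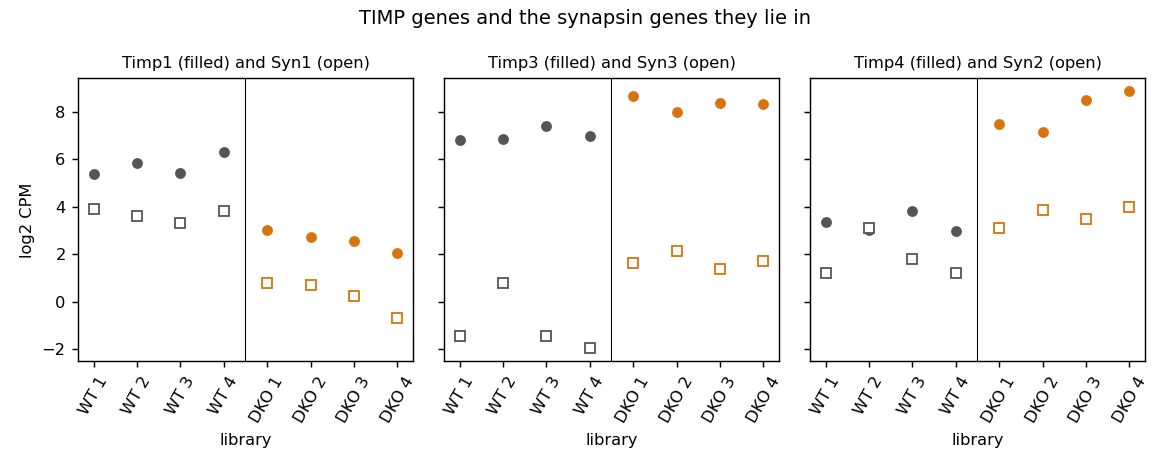
Log2 CPM (vertical axis) of each TIMP gene (filled) and of the synapsin gene around it (open) in each library (horizontal axis), WT in grey and DKO in orange, in 3 panels for Timp1 and Syn1, Timp3 and Syn3, and Timp4 and Syn2. Both genes of a pair are lower in the DKO libraries for Timp1 and Syn1 and higher for the other 2 pairs.

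Among the MMPs, the first targets of the family, 7 tested genes fell and 4 rose. Over all tested genes 16.1% were called lower and 22.7% higher, the base for this and the later list counts. Of 22 listed genes 19 were in the table and 14 were abundant enough to test. The remaining 3 were not called, and the median change was -0.95, beside 0.18 over all tested genes. The gelatinase gene Mmp2 stood at 8.20, 8.38, 8.22 and 8.61 log2 CPM in WT and 6.33, 6.27, 6.37 and 6.21 in the knockout, a change of -2.06 ± 0.11 (limma, adjusted p = 1.17e-05). Mmp14, the membrane protease that activates MMP2, changed by -1.28 ± 0.10 (adjusted p = 4.84e-05), from 7.51 ± 0.15 to 6.23 ± 0.11. Knockout replicate 4 stood above the other 3 for Mmp14 but far below every WT library.

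The other MMPs named by rank of p were the stromelysin gene Mmp3, which changed by -3.75 ± 0.25 (limma, adjusted p = 2.43e-05), Mmp19 with -1.68 ± 0.14 (6.75e-05) and the macrophage elastase gene Mmp12 with -5.10 ± 0.47. Mmp9, the other gelatinase gene and the usual partner of TIMP1, went the opposite way. It stood at 1.22, 1.24, 0.63 and 2.001 log2 CPM in WT and 3.25, 2.94, 3.83 and 3.95 in the knockout, a change of 2.22 ± 0.34 (adjusted p = 0.00118), with 78 reads over the WT libraries. The other MMPs that rose, named after their values were seen, were Mmp28, Mmp15 and Mmp7, and the groups of Mmp7 overlapped. Its call (adjusted p = 0.0455) did not hold in 14 of 24 alternatives, among them the replicate block (0.0666), median centring (0.0509) and leaving out knockout replicate 2 (0.0600), 3 (0.119) or 4 (0.106) or WT replicate 1 (0.0541), 3 (0.0780) or 4 (0.0878), so that 3 MMPs were higher there. Mmp28, Mmp15 and Mmp9 passed in all 24.

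The ratios of 3 MMP genes to the TIMP gene they are best known to pair with shifted by different amounts. Relative to Timp2, Mmp2 fell by 1.18 and Mmp14 by 0.40 on the log2 scale, with all 4 knockout libraries below all WT libraries in both ratios. Relative to Timp1, Mmp9 rose by 5.36. These differences between 2 changes were not tested.

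Of 9 tested ADAM genes 6 were called lower, none higher and 3 were not called, with a median change of -0.70. The 3 not called, named after their values were seen, had positive changes. These were 0.15 for Adam15, whose groups did not overlap, 2.18 for Adam28 and 0.93 for Adam33. Adam28 is also one of the epididymis markers used here. Without knockout replicate 1, 1 member was called higher. Adam17, the target of TIMP3 named above, stood at 7.05, 7.03, 7.09 and 7.14 log2 CPM in WT and 6.18, 5.87, 5.70 and 5.52 in the knockout, a change of -1.26 ± 0.14 (limma, adjusted p = 0.000203). Relative to Timp3 it fell by 2.60 on the log2 scale, without overlap. Adam8, a protease of myeloid cells, changed by -3.81 ± 0.43 (adjusted p = 0.000248), and Adam12 by -1.93 ± 0.38 (0.00374).

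The ADAMTS list was mixed, with 2 of 14 tested genes higher, 5 lower and 7 not called, and a median of -0.02. Its smallest p values belonged to Adamts14, a procollagen-trimming enzyme, with -1.24 ± 0.18 (limma, adjusted p = 0.000992), and to Adamts15 with -1.21 ± 0.22 (0.00303). Adamts10, which acts on fibrillin microfibrils, rose by 0.50 ± 0.12 (0.00878) on the deposited scale but by 0.36 after median centring, which did not pass (0.0753). It also did not pass with voom on the whole reads (0.0759) or without the epididymis-rich libraries (0.0558). The other higher member, Adamts9, and the other lower ones, Adamts4, Adamts2 and Adamts7, are named for their calls after their values were seen. Of these Adamts4, Adamts2 and Adamts7 lost their calls in 7, 12 and 11 of 24 alternatives. The count of lower ADAMTS genes was 2 without WT replicate 1, 3 or 4 or knockout replicate 3 and 3 without WT replicate 2.

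**Figure D5:**
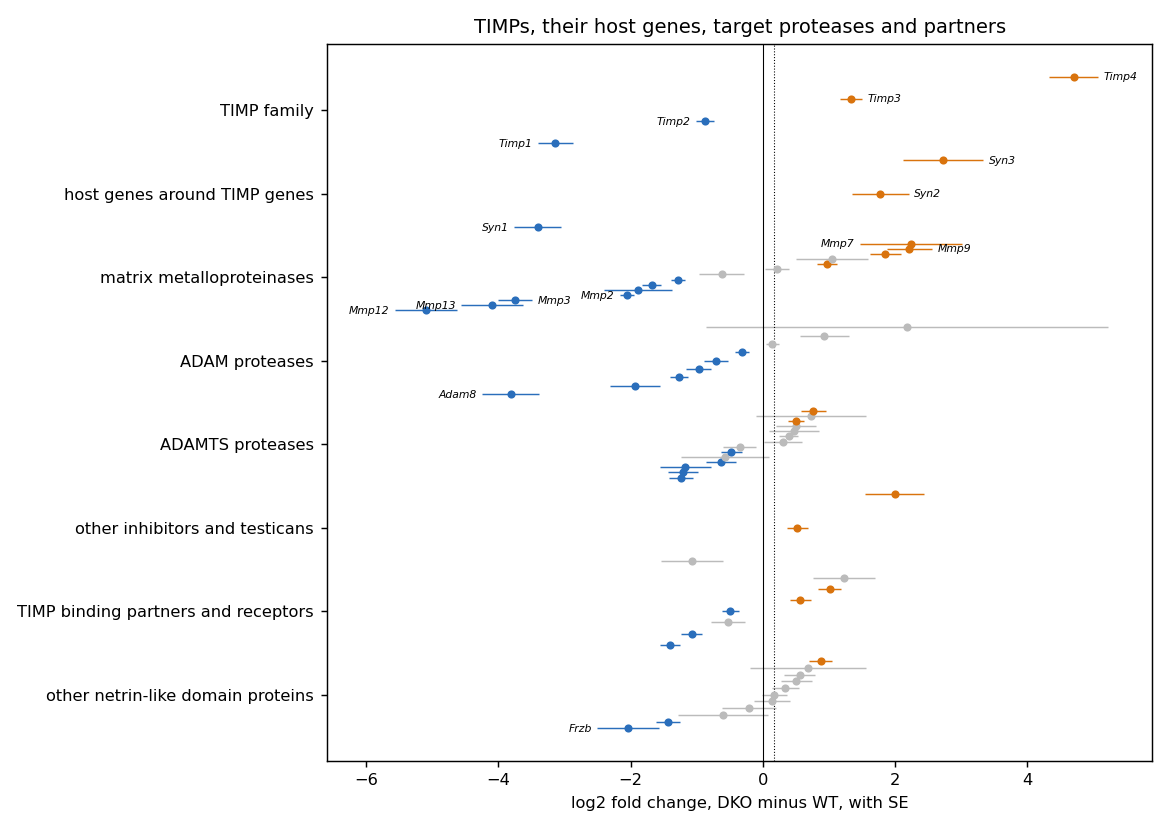
Change of each tested gene (horizontal axis, log2 fold change, DKO minus WT, with SE) in the TIMP family, its host genes, the protease lists, other inhibitors and testicans, binding partners and proteins with a netrin-like domain. Orange points are called higher, blue points called lower and grey points not called at an adjusted p of 0.05, and the dotted line marks the median change of all tested genes (0.18).

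A list of other inhibitors of metalloproteinases and of testicans, related matrix proteoglycans, had 3 tested genes, of which 2 rose and 1, Tfpi2, was not called (median change 0.52). Spock2, which encodes testican-2, is known for lifting the inhibition of membrane-type MMPs by other testicans rather than for inhibiting them, and changed by 1.998 ± 0.44 (limma, adjusted p = 0.00712). Reck, which encodes a membrane-anchored inhibitor of MMP2, MMP9 and MMP14, stood at 3.41, 3.39, 3.49 and 3.21 log2 CPM in WT and 3.84, 3.62, 4.09 and 4.05 in the knockout. Its change was 0.52 ± 0.16 (adjusted p = 0.0256), but it did not pass after median centring (0.38, adjusted p = 0.0868) or quantile normalization (0.31, 0.213). It also did not pass without WT replicate 1 (0.0527), WT replicate 4 (0.0772), knockout replicate 3 (0.0786) or knockout replicate 4 (0.0640). The same held with the replicate block (0.0503), the ribosomal RNA class as a term (0.0626), voom on the whole reads (0.0979) and without the epididymis-rich libraries (0.0946), in all 10 of 24 alternatives.

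Of 7 tested genes for proteins that bind TIMPs, 2 rose, 3 fell and 2 were not called. Cd63, whose tetraspanin product is a receptor for TIMP1, went from 9.11 ± 0.20 to 7.71 ± 0.24 log2 CPM, a change of -1.40 ± 0.15 (limma, adjusted p = 0.000200). Lrp1, the endocytic receptor that clears TIMPs with their proteases, changed by -1.08 ± 0.16 (0.000909). Kdr, the VEGF receptor of endothelial cells that TIMP3 can block, changed by 1.01 ± 0.18 (0.00254) in the opposite direction. It is also one of the endothelial markers used here. The other 2 called genes, named for their calls after the values were seen, were Efemp1, a fibulin-family matrix gene (0.57 ± 0.16, adjusted p = 0.0206, with overlapping groups), and the integrin gene Itgb1 (-0.49 ± 0.13, adjusted p = 0.0159). Efemp1 did not pass after median centring (0.113), with voom on the whole reads (0.0645), without knockout replicate 3 (0.0549) or without WT replicate 1 (0.0603), and Kdr passed in all 24 alternatives. Itgb1 did not pass with the ribosomal RNA class as a term (0.0574) or without the epididymis-rich libraries (0.115).

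The fold of the TIMP inhibitory domain recurs in netrins, complement proteins and procollagen enhancers. Of 11 tested genes for proteins with such a netrin-like domain 1 rose, 2 fell and 8 were not called, with a median of 0.18, the same as over all tested genes. Pcolce, the enhancer of procollagen processing, changed by -1.44 ± 0.18 (limma, adjusted p = 0.000452), Ntn1 by 0.88 ± 0.18 (0.00426) and the Wnt antagonist gene Frzb by -2.03 ± 0.47 (0.00862), which did not pass without the epididymis-rich libraries (-1.75, 0.0573). Among cytokines known to induce Timp1, 2 of 4 tested genes were called lower and none higher, where 16.1% and 22.7% of all tested genes were. The 2 were Tgfb1, at -1.47 ± 0.14 (limma, adjusted p = 0.000108), and Tnf, at -2.38 ± 0.35 (0.000921). Osm and Il6 averaged under 0 log2 CPM and were not tested. The count of lower cytokines ran from 1 to 4 over the alternatives.

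The genes whose centred log2 profile over the 8 libraries lay nearest to each TIMP gene, by root mean square (RMS) difference over 13022 candidates, differed between the members. For Timp1 they were Hmox1 (heme oxygenase), at an RMS difference of 0.0934, Anpep at 0.214 and Cdk18 at 0.219, where the median candidate lay at 1.72. For Timp2 they were Map3k8 at 0.0767, Axl at 0.0841 and Ttyh2 at 0.0967 (median 0.639). Cables1 at 0.0921 and Ptpn4 at 0.114 were among the 3 nearest to Timp3 (median 0.730). Timp4 had no neighbour as close. Its nearest were Retn at 0.417, Cyp2e1 at 0.475 and Cfd at 0.568 (median 2.35), with changes of 4.07, 5.12 and 5.19. Retn and Cfd encode hormones and proteases secreted by adipocytes, and both are adipocyte markers used here. These profiles are dominated by the difference between the groups. With the group means removed, only Hmox1 stayed among the 3 nearest, again as the nearest to Timp1, and none stayed for the other 3 genes.

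Markers of several cell types moved with the TIMP genes. The summed macrophage markers took 0.787% to 0.912% of reads in WT and 0.137% to 0.202% in the knockout, and 12 of 13 tested markers fell, with Mertk not called. Adipocyte markers took 0.910% to 1.61% and 2.44% to 4.17%, with 12 of 13 higher and Lep not called. Fibroblast and progenitor markers took 1.01% to 1.34% and 0.401% to 0.674%, with 1 of 12 higher and 4 lower. The 4 lower were Lum and the collagen genes Col3a1, Col1a2 and Col1a1, of which Col3a1 had the most WT reads of the list (138727). The other 7, among them Pdgfra, Pi16, Ly6a and Cd34, were not called, so the summed share does not speak for every marker. The higher one, Dpp4, was not called without WT replicate 1 or 4 or knockout replicate 2, 3 or 4. Endothelial markers took 0.0490% to 0.0642% and 0.0984% to 0.134%, with 10 of 10 higher. None of these 4 ranges overlapped between the groups, and no marker of these lists was at 0 in any library. Each Wilson bound lay within 0.0181 percentage points of its share.

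Mast cell markers fell in 5 of 7 genes (0.0181% to 0.0430% of reads in WT, 0.00415% to 0.00896% in the knockout). Of 8 smooth muscle and pericyte markers 4 were higher and 1 lower, with 2 higher without WT replicate 1 and 1 without WT replicate 4. Their summed share was 0.303% of reads in knockout replicate 4 and at most 0.0697% in the other libraries (Wilson bounds within 0.00259 percentage points). Of 8 mesothelial markers 4 were higher, and 2 without WT replicate 1 or 4 or knockout replicate 3 or 4. Red cell markers were higher in 2 of 5, and in 4 without knockout replicate 2, but these calls did not hold when any 1 WT library, or knockout replicate 3 or 4, was left out. Of 16 tested genes on the epididymis list 1 was called (Sult1e1), a call that did not hold without WT replicate 1, 3 or 4 or knockout replicate 3 or 4. Sult1e1 did not follow the summed epididymis share. It stood at 4.09 log2 CPM in both WT replicates 1 and 2. Its highest value was 5.67 in knockout replicate 3, where the epididymis markers took 0.00838% of reads. In whole tissue fewer cells of a type and less RNA per cell cannot be told apart, and the part of each cell type in the TIMP changes was not tested.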

How the data were processed

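RNA of epididymal fat from 4 WT and 4 knockout mice was sequenced as 75-base single reads. The submitters' processing notes name Trimmomatic, TopHat2, featureCounts, limma and the mouse build mm9, with versions, settings and order not given in the sources used here. For 16505 genes the authors deposited log2 CPM values, keyed by symbol, and all 8 columns were matched to samples by title. The values equal log2 CPM with 0.5 reads added to each count and 1 to each total, and 100% of them gave whole read counts to within 0.01, which gave the library totals.

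Changes were fitted on these log2 values with limma 3.58.1 in R 4.3.3 (lmFit, eBayes with a mean-variance trend, with only group in the model). Tested were the 13797 genes averaging 0 log2 CPM or more, two-sided, with Benjamini-Hochberg adjustment at 0.05 over all of them. This fit was also run on simulated reads with the same noise setting for all genes. Those reads held no ribosomal or epididymis RNA differences between libraries, so the run does not cover them. Plots used matplotlib 3.10.9.

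The members, gene lists and rules were chosen with earlier results of these data known. Lists of proteases, inhibitors, partners and cell markers are described by counts and medians only. Named genes were the TIMPs, their host genes, the called list members with the smallest p (up to 5 for MMPs, 3 for other lists and 2 for marker lists), the 3 genes nearest to each TIMP (1 of which is not reported here), and Mmp2, Mmp9, Mmp14, Adam17 and Reck. Sequences came from RefSeq (GRCm38.p6), with entries for 4 of 4 TIMP promoters, and gene models and 3′ UTRs from GENCODE M21, which covered 89.3% of the table's genes. These are of another build than the table, so they were joined by symbol only. Alternatives were other scalings, filters, variance models, covariates and library subsets.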

Additional observations from a re-analysis of the deposited data

Results flagged for a closer look

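Single libraries stood apart from the other 3 of their group (Dixon's test at 95%) in 4 of 92 groups, where chance gives about 1 in 20. None was a TIMP gene. They were Mmp14 in knockout replicate 4 (6.39 log2 CPM), Mmp19 in WT replicate 4 (8.24), Adam8 in WT replicate 4 (9.42) and the epididymis-list gene Sult1e1 in knockout replicate 3 (5.67). No value was left out for this.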

How the results depend on the processing

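Each of the 4 TIMP genes kept its direction and its call in all 24 alternatives run. Leaving out 1 library at a time gave -3.29 to -2.95 for Timp1, -0.93 to -0.79 for Timp2, 1.23 to 1.46 for Timp3 and 4.42 to 4.99 for Timp4. The highest adjusted p (limma) over the alternatives was 0.000734, 0.0289, 0.00283 and 0.000469, in that order. The genes called higher numbered 3137 (2113 to 4428 over the alternatives) and those called lower 2216 (1711 to 2964). Of called genes 58.6% were higher, against 46.4% after median centring, 47.4% after quantile normalization and 44.9% with voom on the whole reads and median-ratio size factors. Of the 42 other genes named by the fixed rule none reversed. Among their values 56 of 1004 lost their call, in 7 genes (Adamts10, Frzb, Hba-a1, Hba-a2, Pdgfrb, Reck and Sult1e1). Called genes outside that rule also lost calls. These were Mmp7, Adamts4, Adamts2, Adamts7, Efemp1, Itgb1 and Dpp4, in 14, 7, 12, 11, 4, 2 and 6 of 24 alternatives. The count of higher ADAMTS genes ran from 1 to 4 and of lower ones from 2 to 5, and that of higher inhibitors and testicans from 1 to 3. Leaving out 1 library gave 1 to 6 higher smooth muscle and pericyte markers, 2 to 6 mesothelial and 0 to 4 red cell ones. The netrin-like list had 2 higher genes without knockout replicate 4. Genes with any seed match numbered 3, against 2 with TGAATGT. The planned quasi-likelihood count test was not run.

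With the replicate number as a block the changes were -3.14 (adjusted p = 0.000734), -0.88 (0.00617), 1.34 (0.00139) and 4.71 (0.000359) for Timp1 to Timp4, with 3232 genes higher and 2136 lower, and no TIMP call changed. The labels do not say whether the numbers pair the libraries. Same-numbered libraries deviated together with correlations of 0.362, 0.790, 0.239 and -0.359, and 1 of 4 correlated best with its own number. These correlations cannot decide the pairing, because epididymis and ribosomal RNA also set libraries apart. The highest was for replicate 2, where both libraries are rich in epididymis markers. Syn3 rests on 30 reads over the WT libraries, which limits the precision of its change.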

Other observations

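Genes among the 3 nearest to each TIMP gene over the 8 libraries moved with it. Hmox1, Anpep and Cdk18 changed by -3.07, -2.92 and -3.37, beside Timp1. Map3k8, a kinase of inflammatory signalling, Axl, a receptor kinase of phagocytes, and Ttyh2 changed by -0.84, -0.92 and -0.80, beside Timp2. Cables1 and Ptpn4 changed by 1.38 and 1.32, beside Timp3. These genes were picked for that likeness, so the values are a description. Lep, the leptin gene, was the 1 adipocyte marker not called, at 10.52 ± 0.52 log2 CPM in WT and 10.82 ± 1.06 in the knockout, and Mertk was the 1 macrophage marker not called.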
